A study of Mus musculus with 15 samples.

Results

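Regulators of mitochondrial biogenesis and of fat oxidation were examined for 2 histone marks in pancreatic islets. The set held 10 of 21938 protein-coding genes: the coactivators Ppargc1a and Ppargc1b, the transcription factors Nrf1, Esrra and Ppara, the mitochondrial DNA-binding factor Tfam, and the effectors Cpt1a, Acadm, Pdk4 and Ucp2. They were chosen by name. A peak was assigned to a gene when it overlapped the transcription start site by up to 1 kb either side, or the gene body and 20 kb either side, in GENCODE mouse release 21 on build GRCm38. The level of a peak is its mean pileup, in fragments per base, divided by the coverage that the same fragments would give if spread uniformly over the genome.

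Islets came from adult CBA males, a strain that develops insulin resistance on a fat-rich diet. Mice ate regular chow (RD), a high-fat diet (HFD), or the high-fat diet with O304 mixed in (HFD-O304), a compound that activates the energy-sensing kinase AMPK. Chromatin of about 600 hand-picked, pooled islets was immunoprecipitated with an antibody to H3K27Ac, the acetylated lysine found at active promoters and enhancers, or to H3K27Me3, the trimethylated form deposited by Polycomb. Of 15 samples, 12 were immunoprecipitates, 2 for each mark and diet, and 3 were inputs, which are not analysed here. The authors merged both replicates before calling peaks, leaving 1 list per mark and diet. Replicate error is therefore unknown and the diets are compared as descriptions, without a test. Values carry 95% Poisson intervals, which cover counting error only.

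Ppargc1a and Ppargc1b encode PGC-1 proteins, coactivators that do not bind DNA themselves but are recruited by factors such as NRF1, ERRα and PPARα. NRF1 drives genes of the respiratory chain and Tfam, whose product packages mitochondrial DNA and takes part in its transcription. ERRα and PPARα turn on enzymes of fatty acid oxidation. In beta cells, mitochondrial ATP production couples glucose to insulin secretion. AMPK is known to phosphorylate PGC-1α and, through acetyl-CoA carboxylase, to relieve the inhibition of CPT1.

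Promoter sequences are shown for 6 genes that cover the range of patterns: Nrf1, Esrra and Acadm with H3K27Ac in every diet, Cpt1a with a call that depended on where the start was placed, Pdk4 with H3K27Me3 alone, and Ppargc1a with neither mark. RefSeq promoter entries on GRCm38.p6, which hold 250 bases before and 50 after a start, matched 9 of the 10 genes. Each is printed 5′ to 3′ on the gene's strand, cut back to the bases before any annotated exon. Capitals mark matches on either strand. The NRF1 motif was spelled GCGCANGCG. The letters AAGGTCA were searched for ERR factors and GGGCGG for the GC box, and the motif CCAAT is its own spelling. None of these matches overlapped another in the printed stretches.
Nrf1, chr6:30047738-30047987, plus strand: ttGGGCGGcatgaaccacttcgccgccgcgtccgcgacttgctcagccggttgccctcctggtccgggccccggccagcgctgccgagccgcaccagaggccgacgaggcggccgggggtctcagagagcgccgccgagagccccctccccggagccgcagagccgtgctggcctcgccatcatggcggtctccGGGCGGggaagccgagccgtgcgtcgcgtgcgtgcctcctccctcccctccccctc
Esrra, chr19:6921814-6922058, minus strand: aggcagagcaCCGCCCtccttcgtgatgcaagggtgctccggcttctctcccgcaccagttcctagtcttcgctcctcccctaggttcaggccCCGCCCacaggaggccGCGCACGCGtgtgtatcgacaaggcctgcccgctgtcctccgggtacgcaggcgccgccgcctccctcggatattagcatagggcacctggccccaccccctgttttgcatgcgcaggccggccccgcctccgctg
Acadm, chr3:153944644-153944893, minus strand: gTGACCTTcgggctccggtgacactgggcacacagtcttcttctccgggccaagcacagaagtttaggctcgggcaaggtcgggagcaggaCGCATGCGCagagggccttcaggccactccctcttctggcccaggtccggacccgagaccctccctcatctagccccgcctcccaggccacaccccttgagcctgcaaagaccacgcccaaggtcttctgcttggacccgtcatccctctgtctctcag
Cpt1a, chr19:3323051-3323284, plus strand: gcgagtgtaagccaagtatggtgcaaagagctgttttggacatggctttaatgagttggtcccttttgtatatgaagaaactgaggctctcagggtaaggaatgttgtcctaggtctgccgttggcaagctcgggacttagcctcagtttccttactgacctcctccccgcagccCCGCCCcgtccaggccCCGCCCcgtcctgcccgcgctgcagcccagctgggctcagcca
Pdk4, chr6:5496310-5496528, minus strand: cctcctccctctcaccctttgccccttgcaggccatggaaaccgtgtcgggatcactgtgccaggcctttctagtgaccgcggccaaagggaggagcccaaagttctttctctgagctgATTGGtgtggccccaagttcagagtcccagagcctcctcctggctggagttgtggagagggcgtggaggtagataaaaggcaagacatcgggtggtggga
Ppargc1a, chr5:51567727-51567975, minus strand: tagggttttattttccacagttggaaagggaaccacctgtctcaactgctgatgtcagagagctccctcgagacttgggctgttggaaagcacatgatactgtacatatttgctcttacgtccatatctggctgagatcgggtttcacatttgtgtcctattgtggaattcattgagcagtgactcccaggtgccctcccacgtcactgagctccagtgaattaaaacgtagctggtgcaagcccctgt

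The Esrra promoter held the NRF1 motif 141 bases before the RefSeq start and 2 GC boxes. Acadm held an NRF1 motif 159 bases before its start and the ERR motif 249 bases before it. Ppara also matched the NRF1 motif, in a stretch that overlaps an exon and is not printed. Of 20150 promoter entries of protein-coding genes, 8.90% held the NRF1 motif, 3.97% the ERR motif, 47.8% a GC box and 37.8% CCAAT. The Nrf1 promoter had 2 GC boxes, that of Cpt1a had 2 in the printed stretch, and that of Pdk4 had CCAAT alone. The Ppargc1a promoter matched none of 9 motifs searched, which also included 5 others. The ETS motif, CCGGAAG, was found in 11.9% of entries. The Tfam entry held it 47 bases before the RefSeq start, beside GC boxes, and did not match the NRF1 motif. The CRE, spelled TGACGTCA, was in 2.31%. The E-box CACGTG was in 8.03%. A PPAR direct repeat, GGTCANAGG, was in 1.64%. The letters TATAAA of a TATA box were in 12.1%. A match describes letters in this window and was not tested as a binding site.

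Peaks were called from between 83773042 and 95218072 fragments after removal of duplicates for H3K27Ac and between 54166902 and 74870300 for H3K27Me3. The lowest level among called peaks, named the limit below, was 2.40, 2.26 and 2.37 in the RD, HFD and HFD-O304 lists of H3K27Ac. In those of H3K27Me3 it was 2.74, 3.10 and 2.97. A gene without a peak was not shown to lack the mark, and its level is not known from these lists. Among markers of islet cells, 10 of 15 start sites carried H3K27Ac in at least 1 diet, among them Ins1, Pdx1, Mafa, Nkx6-1 and Slc2a2, whereas Ins2, Gcg, Sst, Ppy and Iapp had none. In all diets 7 of the 15 carried it, while Ins1 lacked a peak on HFD-O304 and Slc2a2 on RD. Over all genes, 10408 of 21938 start sites had no H3K27Ac in any diet. For acinar cells only Bhlha15 of 10 markers had H3K27Ac, in all diets, for endothelial and immune cells 0 of 4 each, and for liver and muscle Ttr and Ckm of 6. The part of these cells in the results below was not tested. Marker starts were those of the gene record, and peaks at their other annotated starts were not looked for.

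Most members carried H3K27Ac at the start site in every diet, and at most 1 carried H3K27Me3. Acetylation was called at 7 of 10 start sites on RD, 8 on HFD and 8 on HFD-O304, against 44.1%, 49.9% and 49.4% of all protein-coding genes. H3K27Me3 was called at 0, 1 and 1 start sites, against 6.63%, 8.46% and 8.88% of all genes. Ppargc1b, Tfam, Nrf1, Esrra, Ppara, Ucp2 and Acadm were acetylated in each diet, Ppargc1a and Pdk4 in none, and Cpt1a, at the start of its gene record, on HFD and HFD-O304. The median level at acetylated members was 3.05 on RD, 3.21 on HFD and 3.15 on HFD-O304. Over all acetylated start sites it was 3.17, 3.27 and 3.30, so the set did not stand out by level. Over all start sites with H3K27Me3 the median level was 3.05 on RD, 3.61 on HFD and 3.45 on HFD-O304.

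**Figure D1:**
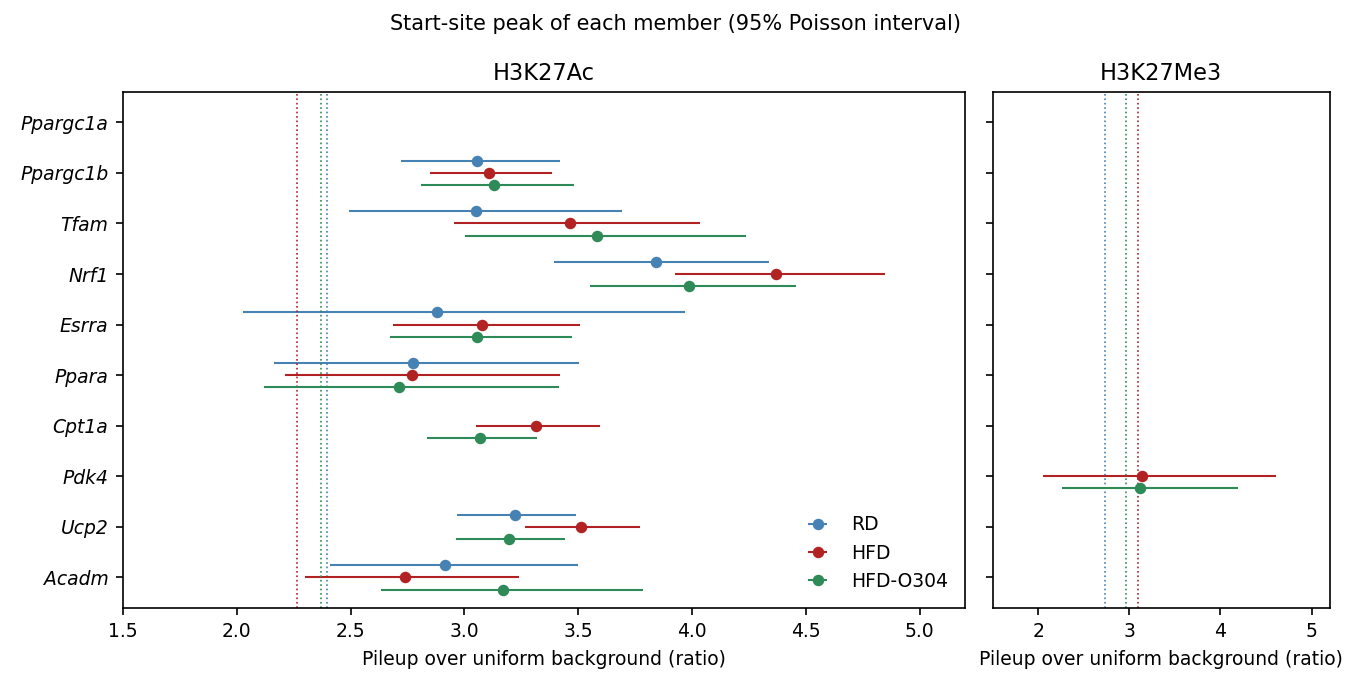
Level (pileup over uniform background, a ratio without unit) of the start-site peak of each gene, for H3K27Ac on the left and H3K27Me3 on the right. Points are the merged lists of RD, HFD and HFD-O304 and bars are 95% Poisson intervals. Dotted lines are the lowest level among the called peaks of each list, and an empty place means no peak. Nrf1 sits highest in H3K27Ac, Ppargc1a has no point, and Pdk4 has H3K27Me3 alone, close to the limit.

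Within the gene bodies and 20 kb either side, H3K27Ac peaks were found at 8 members in each diet, against 63.4%, 69.5% and 68% of all genes on RD, HFD and HFD-O304. These were 17, 18 and 20 peaks, which covered 20.6, 27.8 and 31.9 kb. Of them 12, 12 and 15 lay away from the start sites of other protein-coding genes. The whole lists held 16314, 21674 and 20305 H3K27Ac peaks, and the median width over all acetylated start sites was 966.5, 1086 and 1062 bp. H3K27Me3 peaks were found at 3, 4 and 5 members, against 29.9%, 30.6% and 36.4% of all genes, as 5, 5 and 6 peaks covering 2.91, 5.34 and 5.53 kb. Only 3, 2 and 4 of these lay away from other genes' starts. The whole H3K27Me3 lists held 15517, 15438 and 22049 peaks, with median start-site widths of 788, 1206 and 1106 bp. The part of list size and of list-wide width in the counts and covered lengths of both marks was not tested.

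The 2 coactivator genes differed in H3K27Ac in every diet. Ppargc1a (chr5:51454250-51567726, minus strand), which encodes PGC-1α, had no peak of either mark at its start, along its 113477 bp or in its flanks. The nearest H3K27Ac peak lay 548 kb upstream on RD and HFD and 622 kb upstream on HFD-O304, and the nearest H3K27Me3 peak 177 kb upstream on RD and HFD and 191 kb downstream on HFD-O304. A window without a peak in any of the 6 lists was found for 3583 of 21938 genes (16.3%), but for only 61 of the 2105 genes at least as long as Ppargc1a (2.90%).

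Ppargc1b (chr18:61298136-61400431, minus strand), which encodes PGC-1β, had 1 broad H3K27Ac peak at its start and no other peak. Its level was 3.06 (2.72 to 3.42) on RD, 3.11 (2.85 to 3.38) on HFD and 3.13 (2.81 to 3.48) on HFD-O304, values that lay within each other's intervals. The peak was 2224, 3330 and 2418 bp wide, reached mostly into the gene, and was wider than 93.3%, 96.9% and 92.6% of all acetylated start-site peaks.

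Nrf1 (chr6:30047988-30153458, plus strand) had the highest acetylation of the set in each diet. Its start-site level was 3.84 (3.39 to 4.34) on RD, 4.37 (3.92 to 4.85) on HFD and 3.99 (3.55 to 4.46) on HFD-O304, above 85.5%, 92.4% and 83.6% of acetylated start sites. The peak, 1526 to 1704 bp wide, covered both GC boxes printed above in all diets. On RD its interval overlapped that of every other acetylated member, with upper bounds from 3.42 for Ppargc1b to 3.97 for Esrra. On HFD it overlapped that of Tfam alone (upper bound 4.04). On HFD-O304 it overlapped those of Tfam (4.24) and Acadm (3.78).

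A further Nrf1 peak lay at the edge of the downstream flank, 126 kb from the start, in all diets, with levels of 2.74, 2.94 and 2.67 and widths of 1577, 3065 and 2645 bp. It was overlapped by H3K27Me3 peaks that began 222, 1080 and 933 bp past the window on RD, HFD and HFD-O304. Their levels were 2.97, 4.28 and 3.98, so this place carried both marks in each diet. The median over all start sites with H3K27Me3 had the same order of diets, at 3.05, 3.61 and 3.45. On HFD-O304 alone, H3K27Ac was called in the gene body at 54 kb, at 2.43 with a limit of 2.37, and H3K27Me3 at 124 kb, at 2.98 with a limit of 2.97. Both levels stood close to the limit of their own list. The H3K27Ac level was above the limits of the RD and HFD lists, and the H3K27Me3 level was above that of RD and below that of HFD.

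Tfam (chr10:71225464-71238280, minus strand), a target gene of NRF1, had a compact H3K27Ac peak of 764, 932 and 836 bp over its start. Its level was 3.05 (2.49 to 3.69) on RD, 3.46 (2.95 to 4.04) on HFD and 3.58 (3.003 to 4.24) on HFD-O304. The order RD, HFD, HFD-O304 was that of the values, but the 3 intervals overlapped. A small H3K27Me3 peak began 2455 bp upstream on RD (2.99) and 2606 bp upstream on HFD-O304 (3.04), and none was called on HFD, where the limit was 3.10.

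Esrra (chr19:6910977-6921813, minus strand), which encodes ERRα, differed between diets in the extent of acetylation more than in its level. The level was 2.88 (2.03 to 3.97) on RD, 3.08 (2.69 to 3.51) on HFD and 3.06 (2.67 to 3.47) on HFD-O304. On RD the peak spanned 286 bp, from 620 to 335 bp before the start, and was wider than only 1.05% of acetylated start-site peaks. On HFD it spanned 1430 bp and on HFD-O304 1679 bp, across the start, which was 5 and 5.87 times the RD width. The NRF1 motif and both GC boxes of the printed promoter thus lay inside the HFD and HFD-O304 peaks and outside the RD peak. A width depends on whether neighbouring stretches were called. The lowest called level was lower in the deeper HFD list (2.26) and nearly equal on HFD-O304 (2.37) and RD (2.40).

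Around Esrra the flanks were shared with other genes. H3K27Ac at the starts of Prdx5 and Trmt112 had levels of 3.69, 4.28 and 3.86, and at those of Gpr137 and Bad 3.18, 3.39 and 3.21 on RD, HFD and HFD-O304. H3K27Me3 was present at the start of Catsperz, at 2.95, 3.51 and 3.40 over 1382, 3567 and 2706 bp, and at Kcnk4, at 3.21, 3.88 and 3.45. The nearest of these H3K27Me3 peaks began 3028, 2939 and 3685 bp from the Esrra start. The methylated starts of Catsperz and Kcnk4 thus lay between the acetylated starts of Esrra and of Gpr137 and Bad. Over all start sites with H3K27Me3 the median level was 3.05, 3.61 and 3.45, the same order of diets as at Catsperz and Kcnk4. The median width over all these start sites was 788, 1206 and 1106 bp.

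Ppara (chr15:85734983-85802819, plus strand), the nuclear receptor that senses fatty acids, had the lowest acetylation of the members with a peak on RD and HFD-O304, and the lowest but for Acadm on HFD. Its level was 2.78 (2.17 to 3.50) on RD, 2.77 (2.21 to 3.42) on HFD and 2.71 (2.12 to 3.42) on HFD-O304, above 18.8% of acetylated start sites on RD and 12.5% on HFD-O304. The peak of 567, 607 and 581 bp lay downstream of the record's start, beginning 451, 377 and 216 bp past it. In all diets it covered the RefSeq start, chr15:85735776, and held the NRF1 motif matches of the promoter entry. In the flank, H3K27Ac at the Cdpf1 start was 3.55, 2.79 and 3.36. HFD alone had both marks at the start of Pkdrej, H3K27Ac at 2.66 and H3K27Me3 at 3.59, which overlapped by 315 bp.

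Cpt1a (chr19:3322334-3385733, plus strand) encodes the carnitine palmitoyltransferase that admits long-chain fatty acids to mitochondria and is the step held back by malonyl-CoA. A broad H3K27Ac peak covered its start on HFD, at 3.31 (3.05 to 3.59) over 3456 bp, and on HFD-O304, at 3.07 (2.83 to 3.32) over 4514 bp, and no peak was called within 1 kb on RD. A start-site H3K27Ac peak on HFD and HFD-O304 and not on RD was found at 4.5% of all genes. The RD call hung on 23 bp: an RD peak of 710 bp with a level of 2.96 (2.39 to 3.62) began 1023 bp from the start, and another of 279 bp, at 2.90, followed. The record's start belongs to a transcript outside GENCODE's basic set, and the RefSeq start lay 967 bp further on. From the RefSeq start the RD peak reached from 56 to 765 bp, so that acetylation followed this start in all diets. What differed was extent, since the HFD and HFD-O304 peaks ran from 1352 and 1813 bp before the RefSeq start to 2103 and 2700 bp after it, over the printed GC boxes, which the RD peak left out.

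The highest H3K27Me3 levels near any member were reached 3.9 kb upstream of Cpt1a, where both marks were called in all diets. H3K27Me3 was 7.75 (6.60 to 9.06) on RD, 7.67 (6.23 to 9.33) on HFD and 8.87 (7.42 to 10.5) on HFD-O304, and the 3 intervals overlapped. H3K27Ac was 3.10 (2.27 to 4.15), 3.88 (3.12 to 4.77) and 4.62 (3.79 to 5.59). The RD and HFD-O304 intervals overlapped only between 3.79 and 4.15. Overlap of intervals does not show that levels are equal, and no ratio between diets was computed for these peaks. The 6 peaks shared 328 bp, and repeat-masked bases made up 100% of 5 of them and 96.7% of the H3K27Ac peak of HFD-O304. The sequence is shown because it is a tandem repeat: the unit CTGCTCCC, in capitals, occurred 21 times in the shared stretch, of which 84.1% was C or T.
Cpt1a upstream repeat, chr19:3318247-3318366, plus strand: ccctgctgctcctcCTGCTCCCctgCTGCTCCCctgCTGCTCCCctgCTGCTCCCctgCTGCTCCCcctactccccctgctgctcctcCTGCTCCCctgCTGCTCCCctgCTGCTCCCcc

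Reads from such a repeat can belong to other copies, and the part of this in the levels was not tested. Elsewhere in the gene, H3K27Ac was called 5.2 kb from the start on HFD (2.56) and HFD-O304 (2.60), 11.2 kb away on RD (2.43) and 11.5 kb away on HFD-O304 (2.57), and 31.5 kb away on HFD (2.47). A place 50.2 kb from the start, with no repeat-masked base, had H3K27Me3 on RD alone, at 4.14 (2.999 to 5.57), and H3K27Ac on HFD-O304 alone, at 2.65 (1.83 to 3.70), and these peaks overlapped by 255 bp. The flank also took in the acetylated start of Tesmin at 3.42, 3.34 and 3.28.

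**Figure D2:**
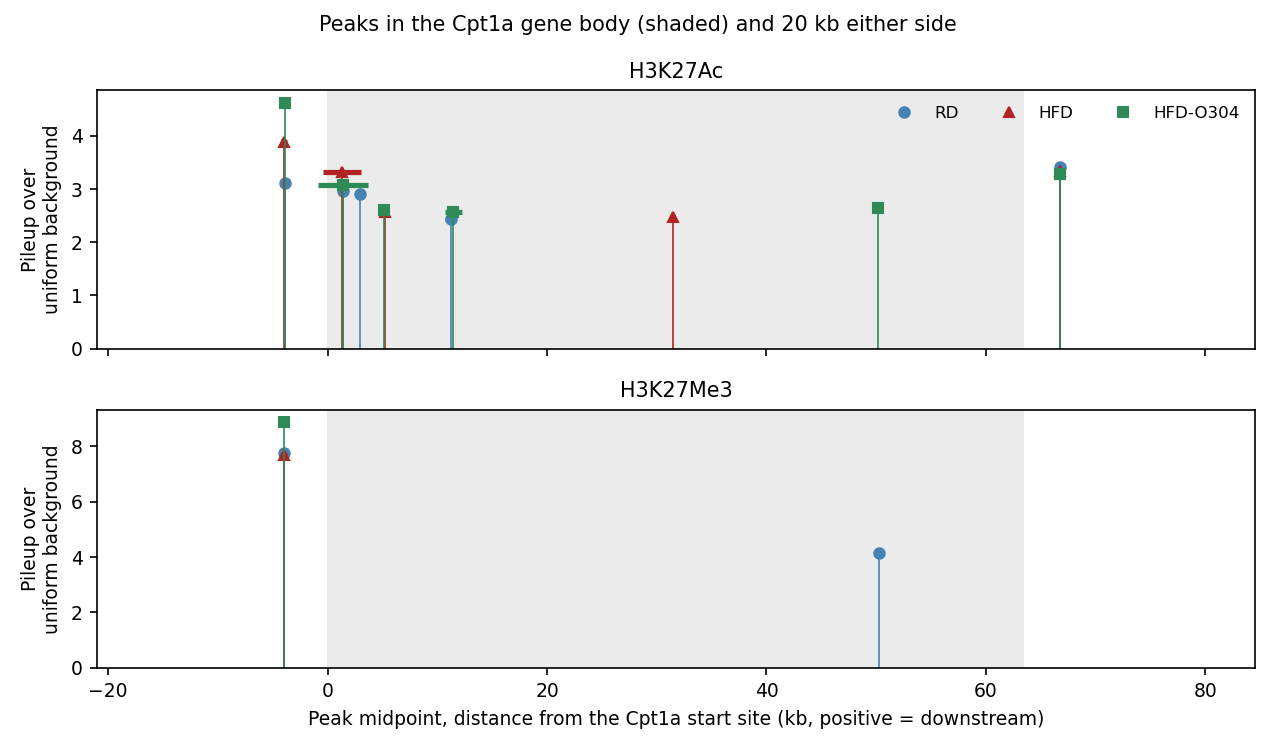
Peaks of the Cpt1a window, placed by their midpoint in kb from the start of the gene record (x axis) and by level, pileup over uniform background (y axis, from 0), with H3K27Ac above and H3K27Me3 below. Markers and colours are RD, HFD and HFD-O304, thick horizontal lines are peak widths and the shaded part is the gene body. The upstream repeat has the highest H3K27Me3 in each diet and the highest H3K27Ac on HFD and HFD-O304, and the broad start-site peak is seen on HFD and HFD-O304 with 2 short RD peaks at the same place.

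Acadm (chr3:153922357-153944632, minus strand), the medium-chain acyl-CoA dehydrogenase of beta-oxidation and a classic target of PPARα and ERRα, was acetylated at its start in all diets. The level was 2.92 (2.41 to 3.50) on RD, 2.74 (2.30 to 3.24) on HFD and 3.17 (2.63 to 3.78) on HFD-O304, with widths of 888, 981 and 855 bp. HFD had the lowest and HFD-O304 the highest value, and all 3 intervals overlapped. The NRF1 motif of its promoter lay inside the peak in each diet, and the ERR motif inside the HFD and HFD-O304 peaks and beyond the edge of the RD peak. Its flank held the acetylated start of Rabggtb, at 3.77, 3.47 and 3.33.

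Ucp2 (chr7:100493337-100502020, plus strand), a mitochondrial carrier known to restrain insulin secretion in beta cells, had the widest start-site acetylation of the set. The peak spanned 4155, 4252 and 4846 bp, wider than 99.0%, 98.6% and 98.9% of acetylated start-site peaks, and ran from 650 to 871 bp before the start to 3504 to 3974 bp into the gene of 8684 bp. Its level was 3.22 (2.97 to 3.49) on RD, 3.51 (3.27 to 3.77) on HFD and 3.19 (2.96 to 3.44) on HFD-O304. HFD was the highest, and its interval overlapped those of both other diets. A further gene-body peak, 7.65 kb from the start, was called on HFD-O304 alone at 2.45, just over the limit of 2.37.

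Pdk4 (chr6:5483351-5496309, minus strand), the kinase that shuts pyruvate dehydrogenase when fat is oxidised, was the single member with H3K27Me3 at its start. A peak of 283 bp with a level of 3.14 (2.05 to 4.61) was called on HFD and one of 455 bp with 3.12 (2.26 to 4.19) on HFD-O304, and none on RD, where the nearest lay 117 kb away. Start-site H3K27Me3 on HFD and HFD-O304 and not on RD was found at 1.94% of all genes. Both peaks sat close to the limits of 3.10 and 2.97, their −log10 q was 2.39 and 2.65, and both covered the CCAAT match of the printed promoter. The HFD-O304 peak was lost when the lists were cut to equal size, and both were lost at a −log10 q of at least 5. No H3K27Ac was called in the window, and the nearest H3K27Ac peak lay 209 kb away on RD and HFD and 198 kb away on HFD-O304.

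**Figure D3:**
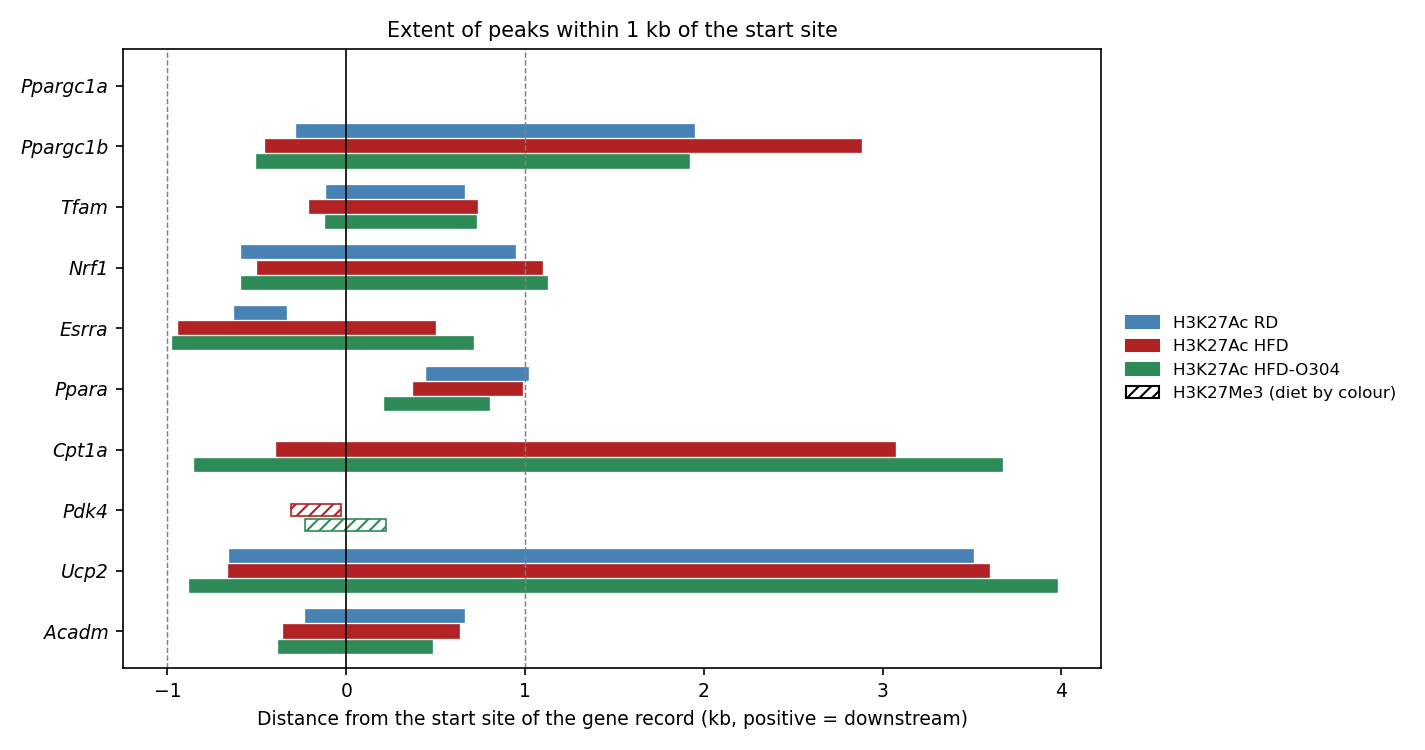
Extent of each peak that overlaps the window of 1 kb either side of the start (dashed lines), in kb from the start of the gene record (solid line), by gene and diet. Filled bars are H3K27Ac and hatched bars H3K27Me3. Ucp2, Ppargc1b and Cpt1a have bars that run several kb into the gene, the RD bar of Esrra stops short of the start, and Cpt1a has no RD bar because the RD peak begins 1023 bp from the start.

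Members with a start-site H3K27Ac peak in both diets of a pair differed little in level there. From RD to HFD, 5 of 7 members had the higher value on HFD, with a median log2 ratio of 0.10, beside 0.07 over 9492 genes, of which 66.5% were higher. From HFD to HFD-O304, 3 of 8 were higher, with a median of -0.02 beside 0.02 over 10321 genes, of which 55.4% were higher. From RD to HFD-O304, 5 of 7 were higher, with a median of 0.05 beside 0.08 over 9440 genes, of which 71.1% were higher. These comparisons share lists and are not independent of each other.

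At the start sites no member passed a change of 1.2-fold in any pair of diets. Over all genes, 12% were at least 1.2-fold higher and 1.77% lower on HFD than on RD, 5.16% higher and 3.05% lower on HFD-O304 than on HFD, and 13.5% higher and 1.51% lower on HFD-O304 than on RD. Among these start-site levels the widest gap was that of Tfam between HFD-O304 and RD, a log2 ratio of 0.23 (-0.14 to 0.60). Next came Acadm between HFD-O304 and HFD, 0.21 (-0.14 to 0.56), and between HFD and RD Nrf1, 0.18 (-0.05 to 0.41), and Tfam, 0.18 (-0.17 to 0.54). Every counting interval of these start-site ratios included 0, and spread between animals, which these intervals leave out, would add to them.

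**Figure D4:**
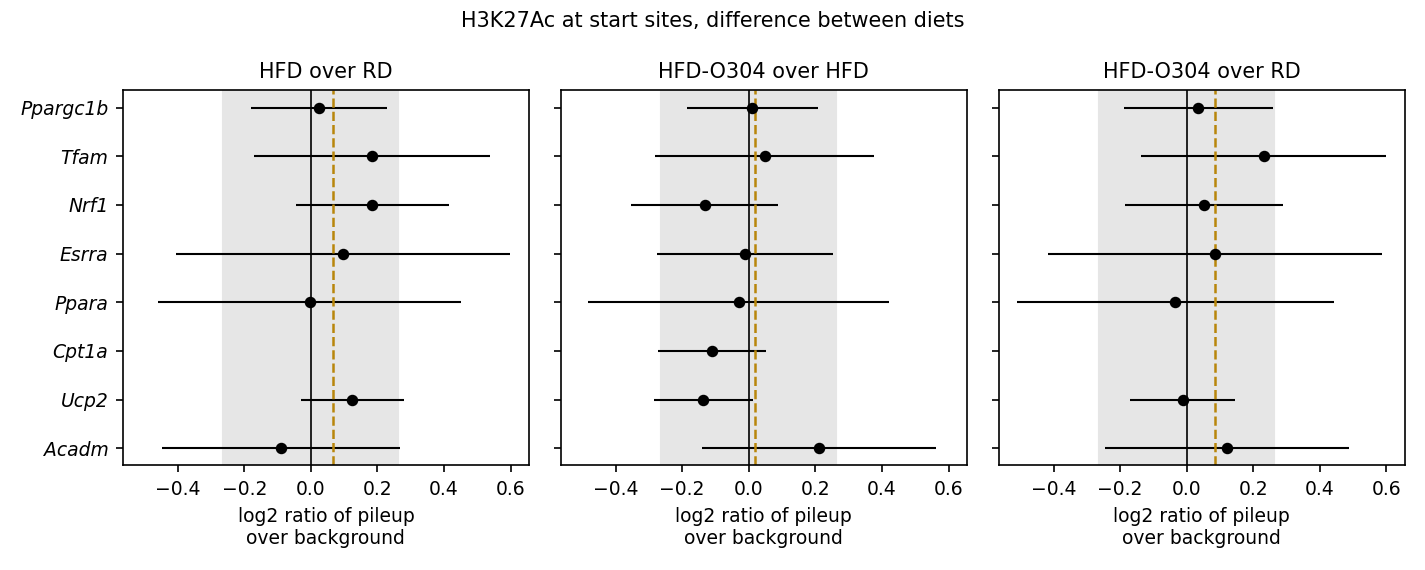
Log2 ratio of the H3K27Ac level at start sites between 2 diets (x axis) for each member with a peak in both, with HFD over RD, HFD-O304 over HFD and HFD-O304 over RD from left to right. Bars are 95% counting intervals, the grey band is a change below 1.2-fold and the dashed line is the median of all genes with a peak in both lists. All points lie inside the band and all bars cross 0.

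The median width of the start-site H3K27Ac peaks of the members was 888 bp on RD, 1509 bp on HFD and 1691.5 bp on HFD-O304, beside 966.5, 1086 and 1062 bp over all acetylated start sites. The members in these medians were not the same in each diet, since Cpt1a entered on HFD and HFD-O304 alone. Over members with a peak in both diets, the median log2 ratio of widths was 0.14 from RD to HFD and 0.13 from RD to HFD-O304, beside 0.17 and 0.14 over all genes, so that the set was not set apart by its widening.

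The base composition around the start, 500 bp either side, differed widely among the members. The ratio of observed to expected CpG was highest at Nrf1 (0.915, above 93.0% of all genes) and lowest at Ppargc1a (0.227, with 42.1% GC). Esrra (0.725), Ppargc1b (0.718), Tfam (0.685) and Ppara (0.657) also lay above 0.6, and Acadm (0.590), Ucp2 (0.574), Pdk4 (0.533) and Cpt1a (0.444, at the record's start) below it. The median over all genes was 0.552, over genes with H3K27Ac on RD 0.762 and over genes with no H3K27Ac in any diet 0.216. H3K27Ac was called at 78.6%, 85.7% and 84.9% of start sites with a ratio of at least 0.6 on RD, HFD and HFD-O304. Below that ratio the shares were 14.8%, 19.4% and 19.2%. The starts of Ucp2 and Acadm, acetylated in all diets, lay below 0.6, as did the record's start of Cpt1a, acetylated on HFD and HFD-O304. Ucp2 and Acadm were close to 0.6 and above the median of all genes. The shares below 0.6 pool all lower ratios and are not those at the ratios of these genes. The RefSeq start of Cpt1a, 967 bp further on, lay outside this window, and its ratio was not computed.

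Most other genes of the same pathways were acetylated too. Their starts were those of the gene record, and other annotated starts were examined for the members only. Of 24 other regulators of biogenesis, 18 carried H3K27Ac at the start on RD, 19 on HFD and 21 on HFD-O304 (75%, 79.2% and 87.5%, beside 44.1%, 49.9% and 49.4% of all genes). The highest on RD were Ppard, a nuclear receptor for fatty acids, at 4.20, 4.17 and 4.40, Gabpb1, a subunit of the ETS factor NRF2, at 4.03, 4.28 and 4.15, and Rxrb, a partner of PPARs, at 3.79, 3.99 and 3.75. Top1mt, the mitochondrial topoisomerase, had a peak on HFD (2.77) and HFD-O304 (2.59). On HFD-O304 alone, peaks were called at Sirt1, the deacetylase that acts on PGC-1α, at 2.65, and at Esrrg, at 2.46, both near the limit of 2.37.

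Esrrg, which encodes ERRγ, also carried H3K27Me3 in every diet, at 3.01, 3.94 and 3.53 over 5777, 6756 and 6199 bp. Medians over all start sites with this mark had the same order of diets, at 3.05, 3.61 and 3.45 and 788, 1206 and 1106 bp. Esrrb had H3K27Me3 on HFD alone, at 3.12 with a limit of 3.10. The 3 ERR genes thus differed, with acetylation alone at Esrra and H3K27Me3 in all diets at Esrrg. On RD, HFD and HFD-O304, H3K27Me3 was called at 4.17%, 8.33% and 4.17% of the 24 regulators, beside 6.63%, 8.46% and 8.88% of all genes. No H3K27Ac was called at the record's start of Polrmt, Esrrb or Perm1.

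Among 32 other genes of fatty acid uptake, import and oxidation, the same 23 (71.9%) carried H3K27Ac in all 3 diets. Over all genes the shares were 44.1% on RD, 49.9% on HFD and 49.4% on HFD-O304. The highest on RD were Mlycd, which degrades malonyl-CoA, at 4.24, 4.15 and 4.75, Acsl1, a long-chain acyl-CoA synthetase, at 4.21, 5.11 and 4.96, and Etfa, a subunit of the electron transfer flavoprotein, at 3.99, 4.08 and 4.80. The 9 without a peak at the record's start were Cd36, Acsl5, Cpt1b, Cpt1c, Eci2, Acacb, Pdk3, Ucp1 and Ucp3. H3K27Me3 was called at Ucp1 alone, the uncoupling protein of brown fat, at 3.93 on HFD and 3.16 on HFD-O304. That was 3.125% of the 32 genes in both diets, beside 8.46% and 8.88% of all genes. Within the gene families of the set, Cpt1a had H3K27Ac at the record's start on HFD and HFD-O304, and just past the RefSeq start on RD. Its relatives Cpt1b and Cpt1c had none at the record's start. Ucp2 had a peak there whereas Ucp1 and Ucp3 had none, and Pdk1 and Pdk2 had one whereas Pdk3 and Pdk4 had none.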

How the data were processed

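H3K27Ac and H3K27Me3 ChIP-seq of CBA islets was analysed from 6 deposited broad peak lists, 1 per mark and diet, grouped by the sample titles. The authors aligned paired reads to GRCm38 with Bowtie2, merged the replicates and ran MACS 2.1.2 in broad mode. The q-value cutoff was 0.01 per the file headers, duplicates were removed (17.2% to 18.4% of H3K27Ac and 45.7% to 56.9% of H3K27Me3 fragments), the effective genome size was 1.87e+09 and no input or local background was used. Pileup, as deposited, is a signal that counts the fragments covering a base. The deposited −log10 q and the authors' fold enrichment (a ratio with 1 added to pileup and background) served for ranking and alternatives, and −log10 p was not used.

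Pileup was divided by kept fragments times fragment length over genome size, with Poisson intervals from the fragments estimated in the peak. Where several peaks met a start-site window, the highest was taken. An overlap of 1 bp counted. Diets were compared as log2 ratios, called past 1.2-fold, with no test. All 10 members were named, with their start-site peaks, their 2 highest other peaks and those called in some diets only. Of the pathway lists, the 3 genes highest in RD and those with a peak in some diets only were named, besides genes without a peak, which were named after their values were seen. The members and lists were chosen with earlier results of these data known. The result of 1 list of cell type markers is not reported here. Python 3.11.15, pandas 2.3.3, numpy 2.4.6, scipy 1.17.1 and matplotlib 3.10.9 were used. The overlap step was tested on simulated data, where 4000 of 4000 windows were recovered. The alternatives were a stricter q, a common fold, lists of equal size, other windows and start sites, other scales, and removal of repeat-rich peaks.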

Additional observations from a re-analysis of the deposited data

How the results depend on the processing

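Of 190 values recomputed for 84 results, 172 stayed within 1.5 times the reported count or within the counting interval and 18 moved. All 18 were counts of members or peaks, of which 78 others stayed. The remaining 94 were start-site levels, widths and log2 ratios on another scale. They came from the same peaks and could hardly move, so they say little about robustness. With −log10 q of at least 5, acetylated start sites numbered 4 on RD, H3K27Ac peaks in the windows 10 on RD and 13 on HFD-O304, start-site H3K27Me3 fell to 0 on HFD and 0 on HFD-O304, and H3K27Me3 peaks in the windows to 2 on RD, 1 on HFD and 1 on HFD-O304. A common fold left 3 H3K27Me3 peaks on RD. Equal list size left 0 start sites and 3 window peaks with H3K27Me3 on HFD-O304. Start-site windows of 2.5 kb gave 1 member with H3K27Me3 on RD. Flanks of 5 kb gave 3 H3K27Me3 peaks on HFD, and flanks of 50 kb gave 9 on RD, 9 on HFD and 11 on HFD-O304. Without peaks at other genes' starts, there were 3 on RD and 2 on HFD. These settings remove or add peaks by construction. With any annotated transcript start, with the RefSeq start or with 2.5 kb, 8 members were acetylated on RD as in the other diets, the gain being Cpt1a. The RefSeq start and the removal of repeat-rich peaks were chosen after seeing the data. On the authors' fold scale 2 of 22 log2 ratios changed sign, none past 1.2-fold. No paired analysis was possible because each list pools both replicates, which also kept any single replicate from being left out. H3K27Me3 lists were shallower than those of H3K27Ac, with a higher lowest called level (2.74 to 3.10 against 2.26 to 2.40), so weak H3K27Me3 was less detectable.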
